A study of Arabidopsis thaliana with 4 samples.

Results

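Genes of the endoplasmic reticulum (ER), of its spindle-shaped derivative, the ER body, and of cytosolic lectins linked to it were followed across Col-0 and *msil2/4* inflorescence stems. They are the ER body gene *NAI2* (AT3G15950), the jacalin-related lectin genes *JAL33* (AT3G16450) and *JAL34* (AT3G16460), the protein disulfide isomerase gene *PDIL1-2* (AT1G77510) and *BIP2* (AT5G42020), which encodes a luminal HSP70 chaperone. All 5 were taken by locus from the 156 genes that the authors listed as up-regulated in *msil2/4*, out of 234 listed genes in all, with 78 listed as down-regulated. They were selected on the RPKM of these same libraries, through the authors' comparison of the genotypes and by the contrast between low and high levels in Col-0, so the difference between genotypes and the levels are given as a description, with no p-value.

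The ER body is a store of beta-glucosidase found in Brassicales, known mainly from seedlings, roots and wounded leaves. NAI2 is needed for its formation. When cells are broken, its main glucosidase PYK10 meets cytosolic jacalin-related lectins, among them JAL33 and JAL34, and forms large complexes with them. BIP and protein disulfide isomerases work in the lumen of the whole ER, where BIP binds unfolded chains with the use of ATP and the isomerases form and shuffle disulfide bonds in secreted proteins. Their genes are classical targets of the unfolded protein response, in which bZIP factors act through promoter elements such as the ER stress response element (ERSE).

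Poly(A) RNA from the basal section of mature stems was sequenced in 4 libraries, 2 from wild-type Col-0 plants and 2 from the *msil2/4* double mutant, all grown untreated in long days in growth chambers. The double mutant combines the T-DNA alleles *msil2-1* and *msil4-1* of the Musashi-like RNA-binding protein genes *MSIL2* and *MSIL4*, while the labels call it a knockdown. From RT-PCR and western blots, the study reports that its insertion lines have no full-length *MSIL* mRNA and no MSIL protein. Neither *MSIL2* nor *MSIL4* was in a table, so the genotypes were not checked here on their transcripts. The replicates are called biological in the study's checklist. How many plants entered a library is not given in the sources used here. Values are the authors' RPKM, reads scaled to the length of the transcript and to the mapped reads of the library. The stem section is a mixture of fibres, xylem, phloem, cortex and epidermis, so that more cells expressing a gene and more RNA per cell cannot be told apart. The 13 markers looked up for fibres and xylem, phloem, epidermis, and myrosin and guard cells were in neither table, so their levels were not analysed here and the tissue label was not checked.

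The 250 bases before the annotated start of each gene are shown because elements such as the ERSE would be sought there. They were read from the TAIR10.1 genome with RefSeq annotation, 5′ to 3′ on the strand of the gene. Capitals mark matches, on either strand, to ERSE (CCAAT and CCACG with 9 bases of any kind between), ERSE-II (ATTGG and CCACG with 1 base between), the G-box (CACGTG), the W-box (TTGACC or TTGACT), which WRKY factors bind, and the TL1 core (GAAGAAGAA), known from genes of the secretory pathway that respond to salicylic acid.
*NAI2*, chr3:5402654-5402903, minus strand: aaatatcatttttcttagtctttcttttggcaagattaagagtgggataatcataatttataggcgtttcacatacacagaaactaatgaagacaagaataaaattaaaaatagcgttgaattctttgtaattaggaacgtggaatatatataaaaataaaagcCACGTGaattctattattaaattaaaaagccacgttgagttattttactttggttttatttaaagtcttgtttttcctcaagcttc
*JAL33*, chr3:5588042-5588291, plus strand: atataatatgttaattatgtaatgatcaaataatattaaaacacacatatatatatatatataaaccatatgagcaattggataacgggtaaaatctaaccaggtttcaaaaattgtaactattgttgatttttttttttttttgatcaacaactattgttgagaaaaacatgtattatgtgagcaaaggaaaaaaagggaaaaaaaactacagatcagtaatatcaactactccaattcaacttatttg
*JAL34*, chr3:5592241-5592490, plus strand: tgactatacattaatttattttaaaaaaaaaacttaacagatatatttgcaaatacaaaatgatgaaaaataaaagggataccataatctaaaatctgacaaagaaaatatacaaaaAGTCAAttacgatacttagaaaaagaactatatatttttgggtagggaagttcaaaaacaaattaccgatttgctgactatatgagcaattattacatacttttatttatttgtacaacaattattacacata
*PDIL1-2*, chr1:29126398-29126647, plus strand: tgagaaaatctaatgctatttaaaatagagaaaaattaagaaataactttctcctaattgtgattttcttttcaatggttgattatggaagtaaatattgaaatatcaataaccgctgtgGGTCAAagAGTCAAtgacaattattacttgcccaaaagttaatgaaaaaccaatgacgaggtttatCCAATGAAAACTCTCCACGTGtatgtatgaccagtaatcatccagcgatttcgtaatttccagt
*BIP2*, chr5:16810694-16810943, minus strand: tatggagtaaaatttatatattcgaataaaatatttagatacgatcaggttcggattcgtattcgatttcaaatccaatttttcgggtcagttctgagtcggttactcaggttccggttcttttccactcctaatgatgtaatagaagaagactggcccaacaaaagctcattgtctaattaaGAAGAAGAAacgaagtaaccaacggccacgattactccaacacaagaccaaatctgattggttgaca

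A full ERSE match stood in the *PDIL1-2* window, CCAATGAAAACTCTCCACG from 64 to 46 bases before the start, and its last 4 bases were also the first 4 of a G-box. Among all 27443 protein-coding genes with such a window, 84 (0.306%) held an ERSE match, and among 155 up-regulated genes 2 (1.29%) did. *NAI2* held a G-box from 86 to 81 bases before the start, a motif found in 1780 windows (6.49%) overall and in 11 (7.1%) of the up-regulated genes. The G-box is one form of the E-box (CANNTG), which basic helix-loop-helix factors bind. NAI1, the known activator of *NAI2* and *PYK10*, belongs to that class. An E-box was in the windows of *NAI2*, *JAL33* and *PDIL1-2*, in 59.4% of those of the up-regulated genes and in 55.3% of all windows. The W-box TTGACT, on the reverse strand, was in the windows of *JAL34* and *PDIL1-2*, in 27.7% of those of the up-regulated genes and in 19.1% of all windows. The W-box TTGACC was in that of *PDIL1-2*, in 12.9% of those of the up-regulated genes and in 12.2% of all. The TL1 core was in that of *BIP2*, and in 4.13% of all windows and 1.94% of those of the up-regulated genes. ERSE-II was in none of the 5 windows, in 0 of the 155 of up-regulated genes and in 0.0619% of all. A match is only a run of letters here. *JAL33*, *JAL34* and *BIP2* also have annotated starts further downstream, the next at 5588459 and 5592644 on chromosome 3 and at 16810646 on chromosome 5, so another window would be read for those transcripts.

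The last 30 coding bases, stop codon included, are shown because many soluble proteins of the ER end in a retention signal. Capitals mark the 4 codons of the carboxy-terminal ER retention signal.
*PDIL1-2*: gaggaaacggccgcaAAGGACGAGCTGtag
*BIP2*: gaggaagatgagtctCACGATGAGCTCtag
*NAI2*: tgggttgagtttcttagttcacttaattga
*JAL33*: ggagtccatgtcatgccactcaccaactga
*JAL34*: ggagtccatgtcgcgccaataaccaaataa
Both folding genes carried these codons before the stop, and *NAI2*, *JAL33* and *JAL34* did not.

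The ER body gene *NAI2* was low in Col-0, at 0.38 and 0.85 RPKM in replicates 1 and 2, and reached 14.7 and 36.9 RPKM in the *msil2/4* replicates. The mean rose from 0.615 ± 0.332 RPKM (SD, n = 2) to 25.8 ± 15.7 RPKM (SD, n = 2), which is 42.0-fold. Even the lower *msil2/4* library stood 17.3-fold above the higher Col-0 library, so the genotypes did not overlap. At the depth the labels state, the Col-0 values would stand for about 29.7 and 66.4 reads. On the scale of log2(RPKM + 1), which understates changes of low genes, the log2 fold change was 3.93 with a standard error of 0.51 from limma. *NAI2* lies on chromosome 3 from 5397541 to 5402653 on the minus strand, with 28 exons in the transcript with the longest coding sequence.

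The lectin gene *JAL33* had the lowest Col-0 mean of all 156 up-regulated genes. It was at 0.03 and 0.24 RPKM in Col-0 and at 10.7 and 31.1 RPKM in *msil2/4*, where it ranked 71 of 156. At the depth that the labels state, 30000000 reads per library, 1 read on its transcript of 1414 bases would be worth 0.0236 RPKM, so the Col-0 values would stand for about 1.27 and 10.2 reads, and the fold is poorly determined. The means were 0.135 ± 0.148 RPKM (SD, n = 2) and 20.9 ± 14.4 RPKM (SD, n = 2), a ratio of 155. The closest libraries of the genotypes differed by 44.5-fold, and the log2 fold change on the scale of log2(RPKM + 1) was 4.10 with a standard error of 0.55.

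*JAL34*, the neighboring lectin gene, started higher, at 1.88 and 3.18 RPKM in Col-0, and was at 16.3 and 59.9 RPKM in *msil2/4*. The mean went from 2.53 ± 0.919 RPKM (SD, n = 2) to 38.1 ± 30.9 RPKM (SD, n = 2), 15.1-fold, with 5.12-fold between the closest libraries and a log2 fold change of 3.22 with a standard error of 0.66. Its Col-0 mean ranked 74 of 156, just above the median of 2.32 RPKM over the up-regulated genes. By these values, which could include reads of an overlapping gene described below, *JAL34* was low but not near-silent in Col-0. The description of the ER body and lectin genes as near-silent thus holds for *NAI2* and *JAL33*, which were under 1 RPKM in both Col-0 replicates, as were 26 of the 156 genes. The study's methods mention a filter on transcripts under 1 RPKM in one of the libraries, yet 64 of the 234 listed genes had such a value.

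The lectin genes sit side by side on the plus strand of chromosome 3, *JAL33* from 5588292 to 5590085 and *JAL34* from 5592491 to 5595912, with 2405 bases and no annotated gene between them. *JAL34* was 62.7-fold and 13.3-fold above *JAL33* in the Col-0 replicates, and 1.52-fold and 1.93-fold above it in the *msil2/4* replicates, so the neighbors came close in level in the mutant. The Col-0 folds rest on about 1.27 and 10.2 reads of *JAL33* at the stated depth. The coding sequence of *JAL33* from base 5 to base 903 aligned to the last part of that of *JAL34*, bases 1217 to 2118, with 70.4% identity. Exact stretches of 75 bases, the read length, were compared on the sense strand only. No such stretch was shared between the *JAL33* and *JAL34* transcripts or with any other annotated transcript. The same held for *NAI2* and *PDIL1-2*. The 3′ part of *JAL34* is overlapped over 631 bases by *JR1* (*JAL35*, AT3G16470) on the minus strand. The libraries are described as directional, but whether the quantification used the strand is not given in the sources used here, so reads of *JR1* within *JAL34* cannot be told apart. *NAI2* lies 185638 bases before *JAL33*, with 52 protein-coding genes lying between.

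*PDIL1-2* was well expressed in Col-0, at 13.2 and 15.4 RPKM, and rose to 68.6 and 61.8 RPKM in *msil2/4*. The replicates were close in both genotypes, with means of 14.3 ± 1.53 RPKM (SD, n = 2) and 65.2 ± 4.80 RPKM (SD, n = 2), a 4.57-fold difference. The log2 fold change was 2.12 with a standard error of 0.32. *PDIL1-2* lies on chromosome 1 from 29126648 to 29129700 on the plus strand. Its coding sequence was 81.4% identical to that of *PDIL1-1*, which was in neither table, without a shared stretch of 75 bases.

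*BIP2* was the highest of the 5 genes in every library, with 41.5 and 38.7 RPKM in the Col-0 replicates, and 122 and 142 RPKM in those of *msil2/4*. The means were 40.1 ± 1.97 RPKM (SD, n = 2) and 132 ± 14.0 RPKM (SD, n = 2), a 3.29-fold difference, with a log2 fold change of 1.69 and a standard error of 0.32. *BIP2* lies on chromosome 5 from 16807342 to 16810693 on the minus strand. Its paralog *BIP1* (AT5G28540) was in neither table. The coding sequences of these copies were 95.9% identical, and 370 of the 2543 stretches of 75 bases in the *BIP2* transcript (14.5%) also occurred in *BIP1*, so reads from these stretches could be assigned to either gene. The *BIP2* value is uncertain for that reason, and the size of the uncertainty was not measured, since it also depends on the level of *BIP1* and on the mismatches allowed in mapping. The inducible paralog *BIP3*, 70.5% identical in coding sequence, was in neither table as well.

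**Figure D1:**
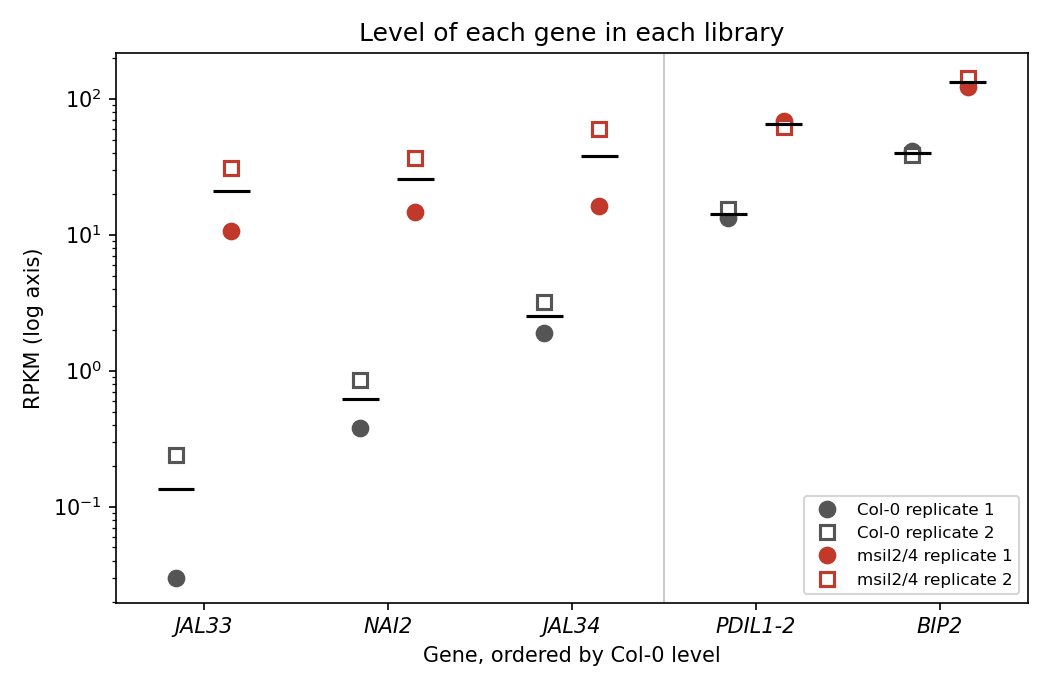
RPKM of each gene in each library on a log axis, with circles for replicate 1, squares for replicate 2, grey for Col-0, red for *msil2/4* and black bars for the mean of 2 libraries. From left to right the Col-0 mean climbs from 0.135 RPKM for *JAL33* to 40.1 RPKM for *BIP2*, while the *msil2/4* means lie between 20.9 and 132 RPKM.

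The order of the means, *JAL33*, *NAI2*, *JAL34*, *PDIL1-2* and *BIP2* from low to high, was the same in both genotypes, but the spread between the genes was much narrower in *msil2/4*. The highest member was 1383-fold and 161-fold above the lowest in the Col-0 replicates, and 11.4-fold and 4.57-fold above it in those of *msil2/4*. The lowest was *JAL33* in each library, at about 1.27 and 10.2 reads in Col-0 at the stated depth. The Col-0 folds are therefore poorly determined. In Col-0 no library value of one gene reached that of its neighbor in the order. In *msil2/4* the values of *JAL33*, *NAI2* and *JAL34* kept that order within each library, though the range of each overlapped those of the others across replicates, whereas *PDIL1-2* and *BIP2* did not overlap with each other or with a lower gene. *PDIL1-2* exceeded *JAL34* 7.02-fold and 4.83-fold in the Col-0 replicates, 4.22-fold in *msil2/4* replicate 1 and only 1.03-fold in replicate 2. The summed level of *NAI2*, *JAL33* and *JAL34* was 4.02% and 7.32% of that of all 5 genes in Col-0, and 17.9% and 38.6% in *msil2/4*. Both the narrower spread and the larger share in part follow from the choice of genes, made on Col-0 level and on an increase.

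Read as ratios, the ER body and lectin genes changed more than the folding genes. Their median log2 fold change was 3.93 (range 3.22 to 4.10), against 1.91 for *PDIL1-2* and *BIP2*, 2.03 over the 156 up-regulated genes and 1.71 over all 234 listed genes. The gap between these medians was 2.03 on the log2 scale, and it was 1.41 without *msil2/4* replicate 2. The groups were set by their Col-0 level, the base of the ratio, so the gap in part follows from the choice of genes. Read as added RPKM, the order was the reverse. *BIP2* gained 92.0 RPKM and *PDIL1-2* gained 51.0, while *JAL34*, *NAI2* and *JAL33* gained 35.6, 25.2 and 20.7 RPKM, with a median gain of 14.7 RPKM over the up-regulated genes. In all 5 genes both *msil2/4* libraries were above both Col-0 libraries, as in 65.8% of the listed genes and 98.7% of the up-regulated ones, and 99.1% of the listed genes showed no overlap in either direction. Since the table was selected for an increase in the same libraries, this count describes the choice of genes. An exact two-sided permutation test of 2 libraries against 2 could not go below p = 0.333.

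**Figure D2:**
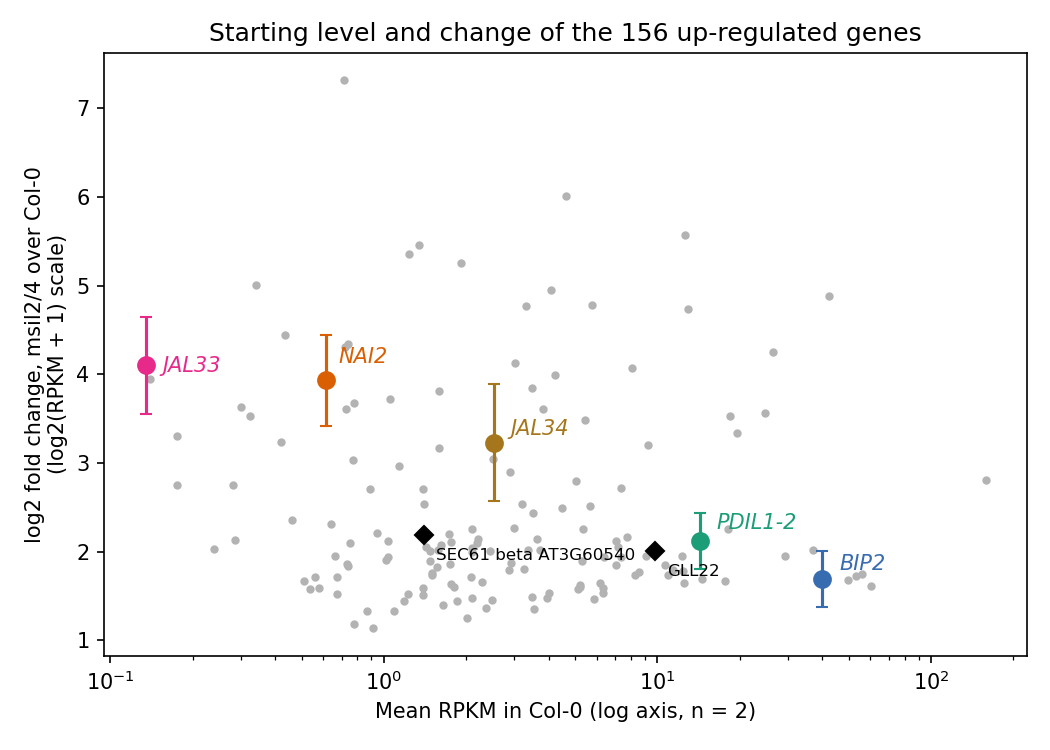
Mean Col-0 RPKM (log axis, n = 2) against log2 fold change, 1 point for each of the 156 up-regulated genes, with standard errors from limma for the 5 genes in color, grey points for other genes, and black diamonds for *GLL22* and the SEC61 beta gene AT3G60540. The folding genes *PDIL1-2* and *BIP2* lie at high Col-0 levels with log2 fold changes of 2.12 and 1.69, and *JAL33*, *NAI2* and *JAL34* lie above them at lower levels.

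*BIP2* was near the authors' limit. The table was restricted to genes with a log2 fold change above 1.5, and the log2 ratio computed from the authors' RPKM value per genotype, 42.5 in Col-0 and 124 in *msil2/4*, was 1.54 for *BIP2*. It ranked 148 of 156. Genes just outside the limit were not analysed here. By the same ratio *JAL33* ranked 2 of 156 at 7.08, *NAI2* ranked 15 at 5.19, *JAL34* ranked 38 at 3.70 and *PDIL1-2* ranked 101 at 2.02. The authors' values per genotype were not plain means of the libraries. Over all listed genes they were a median of 1.06 times the library mean in Col-0 and 0.938 times in *msil2/4*, so ratios from the library values were slightly larger.

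The size of the change of the nearly unexpressed genes depended on the pseudocount. With 0.1 in place of 1, the log2 fold change of *JAL33* was 6.45 and that of *NAI2* was 5.12, and with 0.01 they were 7.51 and 5.33. *JAL34* moved only to 3.62 and 3.67, and the folding genes stayed within 0.1 of their values.

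**Figure D3:**
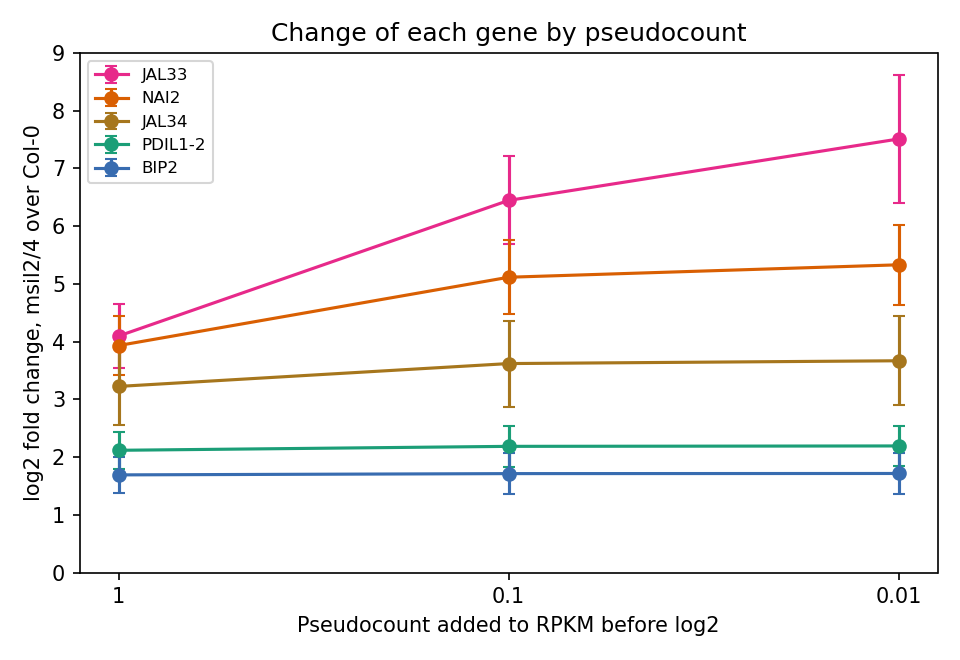
Log2 fold change with its standard error from limma for each gene, against the pseudocount added to RPKM before the logarithm. *JAL33* climbs from 4.10 to 7.51 and *NAI2* from 3.93 to 5.33, while *PDIL1-2* and *BIP2* stay near 2.12 and 1.69.

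The replicates of a genotype were further apart for the ER body and lectin genes than for the folding genes. *NAI2*, *JAL33* and *JAL34* were higher in replicate 2 than in replicate 1 in Col-0, by 2.24-fold, 8-fold and 1.69-fold. The same direction was found in *msil2/4*, by 2.51-fold, 2.91-fold and 3.68-fold. The 8-fold of *JAL33* in Col-0 compares 0.03 with 0.24 RPKM, about 1.27 with 10.2 reads at the stated depth, and is poorly determined. On the scale of log2(RPKM + 1) the signed difference, replicate 2 minus replicate 1, was 1.27, 1.46 and 1.82 in *msil2/4*. Counted from the largest increase, these ranked 21, 15 and 9 of 234. The median over all listed genes was 0.069, with quartiles of -0.27 and 0.54. Genes with a large decrease, down to -1.46, come last in this order, so these are not ranks of size. In Col-0 the signed difference was 0.42, 0.27 and 0.54, ranks 78, 106 and 70. These values lay between the quartiles over all listed genes, -0.23 and 0.61, with a median of 0.11. Replicate 2 was higher in both genotypes for 76 of the 234 genes. The folding genes varied little and in no common direction, with ratios of replicate 2 to replicate 1 of 1.16 and 0.901 for *PDIL1-2* and 0.933 and 1.16 for *BIP2* in Col-0 and *msil2/4*. Both of their replicate differences were within 0.25 on the log2 scale, which held for 27 of the listed genes. Leaving out *msil2/4* replicate 2 gave log2 fold changes of 3.30 for *NAI2*, 3.37 for *JAL33* and 2.32 for *JAL34*, and leaving out *msil2/4* replicate 1 gave 4.57, 4.83 and 4.13. With 2 libraries per genotype these differences were not tested.

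**Figure D4:**
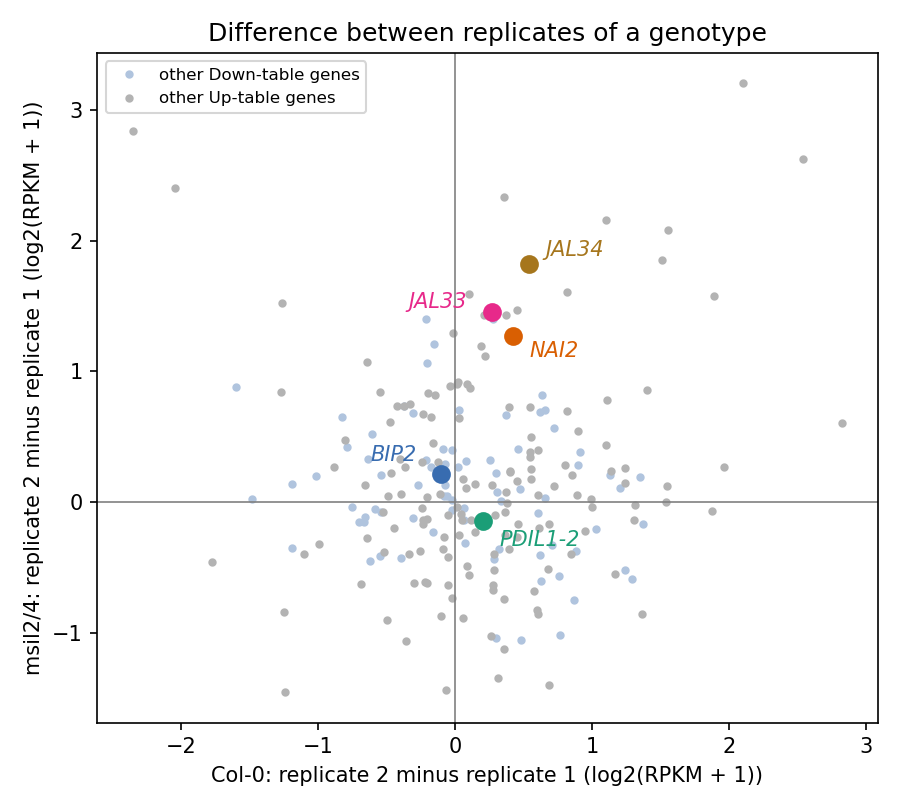
Replicate 2 minus replicate 1 in log2(RPKM + 1), Col-0 on the horizontal axis and *msil2/4* on the vertical axis, for the 5 genes (colored) and the other listed genes (grey for up-regulated, blue for down-regulated). *JAL34*, *JAL33* and *NAI2* lie at 1.82, 1.46 and 1.27 on the vertical axis, and *PDIL1-2* and *BIP2* lie near the origin.

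The genes with the most similar profiles were sought by the Euclidean distance between centred log2(RPKM + 1) values over the 4 libraries, among the 233 other listed genes. *NAI2* and *JAL33* were each other's nearest gene, at a distance of 0.24. The next for both were the methionine sulfoxide reductase gene *MSRB8* (0.72 from *NAI2* and 0.81 from *JAL33*) and the dark-inducible gene *DIN11* (0.76 and 0.64). *MSRB8* was at 0.2 and 1.24 RPKM in Col-0 and at 25.9 and 38.2 RPKM in *msil2/4*. *DIN11* was at 3.57 and 4.86 RPKM in Col-0, then at 35.6 and 184 RPKM in the mutant. Nearest to *JAL34* were the apyrase gene *APY5* (AT1G14250) at 0.32, the legume lectin-like gene AT5G03350 at 0.59 and *NAI2* at 0.81. The profile of *PDIL1-2* was closest to that of AT3G60540, a gene for the beta subunit of the SEC61 translocon through which proteins enter the ER, at 0.19, followed by AT3G57460 at 0.20 and the glutathione transferase gene *GSTL1* at 0.22. *BIP2* was closest to AT4G30800, named *RPS11B* in the table, at 0.096, to AT5G65790, *MYB68* in RefSeq, at 0.12, and to the dirigent gene *DIR20* (AT1G55210) at 0.12. *PDIL1-2* and *BIP2* were 0.54 apart, *BIP2* being the 41st gene by distance from *PDIL1-2*. These are descriptions over 4 libraries that depend on the pseudocount. With 0.1, a setting added after the data were seen, *JAL33* was the 11th gene from *NAI2*, and AT3G60540 was the 34th from *PDIL1-2*.

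Other genes of these pathways were looked up in both tables. Of the 27443 annotated protein-coding genes, 155 (0.565%) were in the table of increases; how many the authors tested is not given in the sources used here. The 5 genes themselves were chosen from that table, so their part in the counts below is not evidence about the lists. Of 12 ER body genes, 2 were up-regulated, *NAI2* and *GLL22* (AT1G54000), a GDSL lipase-like gene whose product is found with PYK10 complexes. *GLL22* was at 11.8 and 7.79 RPKM in Col-0 and at 31.0 and 56.1 RPKM in *msil2/4*, a log2 fold change of 2.01 with a standard error of 0.43, so it was already expressed in Col-0, like the folding genes. The other 10, among them *NAI1*, *PYK10*, *BGLU18*, *BGLU21*, *BGLU22*, *TSA1*, *MEB1* and *MEB2*, were in neither table. *TSA1*, the relative of *NAI2* in seedlings, was 68.2% identical to it in coding sequence. Of 12 jacalin-related lectin genes, *JAL33* and *JAL34* were up-regulated, and 10 were in neither table. Those 10 include *PBP1*, *JAL31*, *JAL32* and *JR1* from the same cluster on chromosome 3. The coding sequences of *JAL32* and *JAL33* were 77.9% identical.

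Among 13 ER chaperone genes only *BIP2* was listed, and *BIP1*, *BIP3*, the HSP90 gene *SHD*, the co-chaperone genes *ERDJ3A*, *ERDJ3B* and *P58IPK*, and the calnexin and calreticulin genes were in neither table. Of 9 genes for disulfide isomerases and ER oxidases only *PDIL1-2* was listed. None of 14 genes of sensors, regulators and degradation in the unfolded protein response was listed, *BZIP60*, *BZIP28*, *IRE1A* and *IRE1B* included. Among 15 genes for the translocon, oligosaccharyltransferase and KDEL receptors, only AT3G60540 was listed, at 1.44 and 1.36 RPKM in Col-0 and 10.3 and 9.52 RPKM in *msil2/4*. Its log2 fold change was 2.18 with a standard error of 0.31, with replicates apart by -0.048 (Col-0) and -0.10 (*msil2/4*), replicate 2 minus replicate 1 in log2(RPKM + 1). In all, 7 of the 75 genes in these 6 lists stood in the table of increases and 0 in that of decreases, which leaves 68 unlisted. Of all annotated protein-coding genes, 155 of 27443 (0.565%) stood in the table of increases. Of the 7, 5 are the genes described here, which were chosen from that table, so the total is not evidence about the lists. A gene in neither table was not shown to be unchanged, because a difference below 2.83-fold, the authors' limit, one that missed their significance threshold, or a filtered value would leave it out.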

How the data were processed

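Poly(A) RNA of 2 Col-0 and 2 *msil2/4* stem libraries was sequenced as single reads of 75 nt. Per the submitters' processing notes, the authors aligned reads to TAIR10 with TopHat2 2.0.7 and Bowtie2 2.3.4 and quantified transcripts with Cufflinks 2.2.1. The genotypes were compared by the authors with Cuffdiff (version not given in the sources used here). RPKM values of each library and of each genotype were deposited, for called genes only. The deposited log2 fold changes are the authors' own comparison and were not used. The labels state 30000000 reads per library. Values above 0 and under 0.5 RPKM numbered 24, 12, 2 and 1 per library, too few to recover read counts, so no count model was used.

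The members and gene lists were chosen with earlier results of these data known. Library RPKM was transformed as log2(RPKM + 1) and fitted with limma 3.58.1 in R 4.3.3 over all 234 genes, with genotype as the only term, for effects and standard errors. The fit was also run on simulated data, in which most genes carried a set effect and the spread did not depend on the level. That simulation did not model values near 0 RPKM or genes selected for a difference. It therefore does not check the standard errors of genes such as *JAL33*. The prior degrees of freedom of the fit to the libraries, 3.27, came from genes selected for a difference. Python 3.11.15 was used for tables and figures. Replicates of a genotype had identical values in 0 genes. Named genes are the 5 members, the 3 listed genes nearest to each in profile, and every list gene found in a table. Coordinates and sequences are from TAIR10.1 with RefSeq annotation, in which all 234 loci were found. Alternatives were pseudocounts of 0.1 and 0.01, rescaling to the authors' values per genotype, a filter at a mean of 1 RPKM, the replicate number as a block and each library left out.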

Additional observations from a re-analysis of the deposited data

How the results depend on the processing

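No direction reversed under any alternative run. In the genes followed here both *msil2/4* libraries were above both Col-0 libraries. Their direction was thus largely fixed by the choice of genes and is no check. Pseudocounts of 0.1 and 0.01 moved the log2 fold change of *NAI2* from 3.93 to 5.12 and 5.33 and that of *JAL33* from 4.10 to 6.45 and 7.51. The ER body and lectin median moved to 5.12 and 5.33, and its gap to the folding genes moved from 2.03 to 3.17 and 3.38. These pseudocounts moved the median of all listed genes from 1.71 to 2.01 and 2.06, by 0.30 and 0.35. Rescaling to the authors' values per genotype lowered the median of all listed genes by 0.15, from 1.71 to 1.56, and gave 1.95 for *PDIL1-2*, 1.52 for *BIP2* and 1.73 for the median of both, shifts of about that size. The filter at a mean of 1 RPKM removed no gene. Leaving out each library in turn gave 3.30 to 4.57 for *NAI2*, 3.37 to 4.83 for *JAL33*, 2.32 to 4.13 for *JAL34*, 2.02 to 2.22 for *PDIL1-2*, 1.58 to 1.80 for *BIP2* and 1.41 to 2.65 for the gap. The lowest values of *NAI2*, *JAL33*, *JAL34* and the gap came without *msil2/4* replicate 2. Places in likeness, with a pseudocount of 0.1, moved from 1 to 11 for *JAL33* from *NAI2* and from 1 to 34 for AT3G60540 from *PDIL1-2*. Nothing in the labels says that a replicate number marks a shared batch. Over listed genes the replicate differences of the genotypes correlated at 0.067. *NAI2*, *JAL33* and *JAL34* were higher in replicate 2 in both genotypes, and whether a batch contributed was not tested. With the replicate number as a block, the log2 fold changes could not differ, since each replicate number occurs in both genotypes. They were 3.93 for *NAI2*, 4.10 for *JAL33*, 3.22 for *JAL34*, 2.12 for *PDIL1-2* and 1.69 for *BIP2*. Each standard error became 0.51, the same for all of these genes, so it no longer reflected the spread of each gene. Genes without overlap numbered 232, and 232 to 234 with 1 library left out, which can only keep or raise this count. With read counts known only approximately, from the stated depth, the Col-0 values of *JAL33* (about 1.27 and 10.2 reads) are far less precise than those of *NAI2* (about 29.7 and 66.4 reads).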
